A study of Mus musculus with 3 samples.

Results

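Plasmacytoid dendritic cells (pDCs) of the mouse liver were selected on the marker transcripts of each cell in 2 single-cell libraries, counted as UMIs (unique molecular identifiers, 1 per RNA molecule). A cell was counted as a pDC when it had 200 to 4000 genes, at most 25% of its UMIs from mitochondrial genes, at least 2 UMIs of Siglech, and at least 4 UMIs of Siglech, Klk1, Cox6a2 and Ccr9 together. It could hold at most 2 UMIs of the Kupffer cell genes Clec4f and Vsig4 together, and at most 1 UMI of Cd3e, Cd79a and Xcr1 together, which mark T cells, B cells and type 1 conventional dendritic cells (cDC1). The rule gave 1034 pDCs among 42971 cells that passed the limits on genes and mitochondrial UMIs. Of these, 749 were among 23346 cells of the first library and 285 among 19625 cells of the second.

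Both libraries came from liver cells captured with the BD Rhapsody system for whole transcriptome sequencing, with 1 library per condition. By the study, these were non-parenchymal cells isolated from the liver. Shares of cells are therefore shares of that fraction. The second library, called the HFHC pool, holds cells of wild-type (WT) mice and of Chi3l1-/- mice (a constitutive knockout, Chil1 in the tables) on the C57BL/6J background, all kept for 16 weeks on the HFHC diet, which is rich in fat and cholesterol, with no genotype for each cell in the tables used here. A tag library of this pool was not analysed here. The first, called the WT library, was mapped to its sample by elimination. The sample title reads MCD, the header names the library APAP0h, and the study describes WT C57BL/6J mice on a normal chow diet, so its diet is not settled. Age, sex and the number of mice behind each library are not given in the labels. The effects of diet, of the mixture of genotypes and of each capture cannot be told apart here, and no test between the libraries was possible. All intervals are exact 95% intervals that cover counting error only.

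pDCs are rare immune cells of blood, lymphoid organs and the liver that sense viral and self nucleic acids in endosomes through the receptors Tlr7 and Tlr9 and can then release large amounts of type I interferon. Their identity rests on the transcription factor Tcf4 (E2-2), which binds the short DNA motif known as the E-box, while Id2, an inhibitor of E proteins, favours conventional dendritic cells. In the mouse they carry the surface lectin Siglech and the receptor Ccr9, and they transcribe some immunoglobulin and other lymphoid genes.

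Promoters of 4 genes that marked these cells are shown first, because Siglech, Klk1 and Ccr9 belong to the rule and Klk1b27, which does not, is a close copy of Klk1 that was also high in pDCs. The sequences are those of RefSeq for the mouse build GRCm38.p6, each of 300 bases from 250 before a transcript start in RefSeq to 50 after it, on the plus strand. Capitals mark every CANNTG, the general E-box, where N is any base. Siglech lies at chr7:55768178-55778925 and its promoter at chr7:55767934-55768233. The promoter of Klk1 (a tissue kallikrein, a serine protease) lies at chr7:44225110-44225409, that of its paralog Klk1b27 at chr7:44052040-44052339, and that of Ccr9 at chr9:123766961-123767260. The RefSeq start of Ccr9 lies inside the gene as GENCODE M21 draws it, which spans chr9:123678439-123784330.
Siglech: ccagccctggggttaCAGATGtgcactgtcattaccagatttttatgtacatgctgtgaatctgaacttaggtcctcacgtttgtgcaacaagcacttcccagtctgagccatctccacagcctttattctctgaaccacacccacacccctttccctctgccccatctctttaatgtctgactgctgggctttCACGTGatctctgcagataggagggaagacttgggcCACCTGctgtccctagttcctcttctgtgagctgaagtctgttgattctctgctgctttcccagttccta
Klk1: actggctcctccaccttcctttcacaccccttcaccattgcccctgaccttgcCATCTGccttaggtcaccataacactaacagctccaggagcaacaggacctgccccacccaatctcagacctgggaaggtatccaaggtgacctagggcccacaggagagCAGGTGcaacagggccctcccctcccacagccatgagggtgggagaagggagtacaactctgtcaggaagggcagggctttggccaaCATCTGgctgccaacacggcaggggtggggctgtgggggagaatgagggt
Klk1b27: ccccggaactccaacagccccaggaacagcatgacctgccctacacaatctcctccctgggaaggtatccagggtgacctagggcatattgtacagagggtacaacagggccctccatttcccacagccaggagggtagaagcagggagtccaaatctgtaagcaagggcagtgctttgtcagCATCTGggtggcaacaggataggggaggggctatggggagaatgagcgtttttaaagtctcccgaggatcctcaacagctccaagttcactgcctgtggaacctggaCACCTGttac
Ccr9: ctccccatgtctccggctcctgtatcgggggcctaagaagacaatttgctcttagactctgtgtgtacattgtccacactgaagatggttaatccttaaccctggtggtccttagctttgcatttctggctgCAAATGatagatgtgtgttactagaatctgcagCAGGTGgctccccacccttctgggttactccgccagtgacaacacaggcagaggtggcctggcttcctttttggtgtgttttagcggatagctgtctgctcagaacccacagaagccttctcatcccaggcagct
Each of these promoters held CAGGTG or its reverse complement CACCTG once. Among 16 genes searched, the 15 leading genes named further on and Ccr9, 11 had an entry in the promoter table, with 15 promoters in all because some have several starts. On either strand, CANNTG was in 13 of the 15 (86.7%) and in 72.3% of all 32851 promoters of the table. CAGGTG or CACCTG, one form of CANNTG, was in 9 of the 15 (60.0%), from 8 of the 11 genes, and in 20.2% of all promoters. CAGCTG, another form, was in 1 of the 15 (6.67%) and in 16.3% of all. GAGGAA, a core read by factors of the Spib kind, was in 4 of the 15 (26.7%) and in 28.3% of all, and TGTGGT, a core read by Runx factors, was in 1 (6.67%) and in 16.8%. These counts describe letters in the promoters and are no measure of binding.

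The pDCs were well sequenced relative to their libraries. UMIs per pDC ranged from 256 to 10084 in the WT library, with a median of 3201, and from 422 to 15620 in the HFHC pool, with a median of 6314. The medians over all kept cells were 1322.5 and 1622 UMIs. Median genes per pDC were 1596 and 2408, and the median mitochondrial share was 8.86% and 8.83%. Summed over the pDCs of a library there were 2462820 and 1836081 UMIs, so that a gene with no UMI could still be at up to 1.22 CPM (UMIs per 1000000 UMIs of the class) in the WT library and 1.63 CPM in the pool, by the limit that a count of 0 allows (3 counts). The tables have 756 cell indices in common. No index was a pDC in both, 7 pDCs of the WT library had an index that also occurs in the pool, and 12 pDCs of the pool had one that also occurs in the WT library.

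The pDCs made up 3.21% (2.99 to 3.44%) of kept cells in the WT library and 1.45% (1.29 to 1.63%) in the HFHC pool. The first share was 2.21 times the second, and 2.0 to 2.47 times under 10 other settings of the filter, the rule and the denominator. All of these settings kept the lower limit on genes and a limit on mitochondrial UMIs, though not all kept the upper limit on genes. A ratio without any filter is not among them. By the marker minimum alone, the counts before any filter, given below, put the ratio under this range. The limits as reported left 76.0% of the cells of the WT library and 90.9% of those of the pool, and this unequal loss enters both shares. Cells with over 5% hepatocyte UMIs made up 24.0% and 31.0% of kept cells, and with these out of the denominator the pDC shares were 4.21% and 2.10%. The marker minimum was met by 809 of 30734 and 319 of 21601 cells before any filter. The cell filter took out 14 and 11 of them, the Kupffer cell genes 22 and 2, and the lymphoid and cDC1 genes 27 and 21, with some cells of the WT library under both exclusions. Scrublet, a caller of doublets that were not removed here, marked 81 pDCs of the WT library (10.8%) and 14 of the pool (4.91%), against 8.17% and 2.0% of all kept cells.

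The marker minimum cut through few cells. Siglech, the lectin that gave the rule its first condition, had a median of 17 UMIs per pDC in the WT library (quartiles 11 and 22, highest 62) and of 28 in the pool (18 and 36, highest 70). The 4 markers together had medians of 28 and 51 UMIs. Of the pDCs, 24 and 14 lay just inside, at a sum of 4 to 6 UMIs. Just outside lay 180 and 142 kept cells that passed the exclusions and held at least 1 Siglech UMI. They were shallower, with medians of 1250 and 1670 UMIs against 2495.5 and 7578.5 just inside. Tcf4 was at 446 and 384 CPM just outside, at 2113 and 965 CPM just inside, and at 2515 and 2031 CPM over all pDCs. The hepatocyte transcript Alb was at 2635 and 2917 CPM just outside, against 270 and 297 CPM over all pDCs.

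Genes that the rule did not name, though measured in the same cells, carried the same identity, and this is given as a description with no test. Tcf4 itself was at 2515 CPM (2453 to 2578) in pDCs of the WT library, whereas pDCs of the pool had 2031 CPM (1966 to 2097). The highest level of Tcf4 in 4 other classes of cells was 313 and 351 CPM, both in B cell-like cells. These classes, again set by each cell's own marker UMIs, were cDC1-like cells (203 and 146), cells like type 2 conventional dendritic cells (cDC2-like, 182 and 150), B cell-like cells (1284 and 890) and T cell-like cells (2698 and 2570). Irf8, a transcription factor that pDCs share with cDC1, was at 4964 and 3008 CPM in pDCs and at 2757 and 1915 CPM in cDC1-like cells. Runx2, which drives the exit of pDCs from bone marrow, was at 1273 and 1386 CPM in pDCs and at no more than 158 CPM in any other class. Spib, an Ets factor of pDCs and B cells, was at 774 and 795 CPM, against 454 and 294 CPM in B cell-like cells. Id2 was at 44.3 and 39.8 CPM in pDCs, and at 2713 and 1751 CPM in cDC1-like cells. Bst2, the tetherin that the antibody PDCA-1 detects, was at 1623 and 997 CPM in pDCs, and below 140 CPM in the other classes. In both libraries the pDC levels of Tcf4, Runx2, Spib and Bst2 were therefore above those of all 4 other classes, whereas Irf8 was high in cDC1-like cells too.

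**Figure D1:**
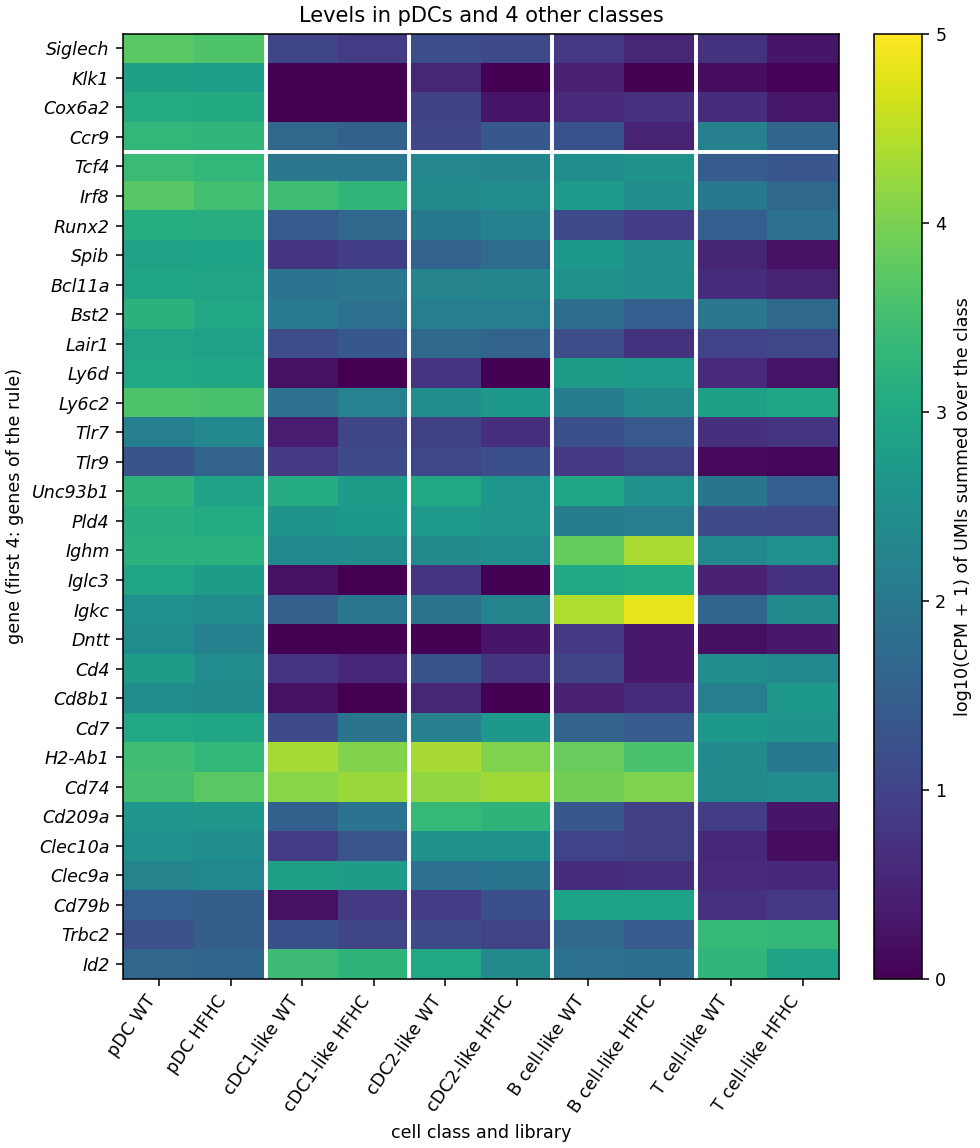
Heat map of log10(CPM + 1) for 32 genes (rows) in pDCs and 4 other classes of each library (columns, with WT for the WT library and HFHC for the HFHC pool), where CPM is of UMIs summed over the class. The first 4 rows are genes of the rule, Tcf4 to Ly6c2 are high in pDCs of both libraries, and Igkc and Ighm peak in B cell-like cells.

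Across all genes with at least 50 UMIs in the pDCs of both libraries together, 339 of 7809 (4.34%) were at least 2-fold above every comparison class in both libraries. Of 42 genes known from pDCs that the rule did not use, 25 were among them. That list was drawn up with earlier results of these data known, so the count is a description only. The genes that led were ranked by the log2 ratio over the highest other class, taking the lower of the 2 libraries and adding 1 UMI to each sum. Siglech stood 8.36 above, as the rule required. Cox6a2 (a muscle-type subunit of cytochrome c oxidase) stood 6.89 and Ccr9 3.75 above. Klk1 was at 680 and 616 CPM against no more than 2.49 CPM in another class. Cox6a2, Ccr9 and Klk1 count in the marker sum of the rule, so their excess is no finding, though a pDC did not have to hold any of them. Most of the other leading genes had so few UMIs in other classes, or none, that the added UMI weighs on their order, and levels are given in place of a ratio. Among genes outside the rule the first was Gm21762, a gene model on chromosome 13, at 121 and 147 CPM against no more than 0.96 CPM in another class. Atp2a1, the calcium pump of the sarcoplasmic reticulum in fast muscle, followed at 320 and 275 CPM, against no more than 3.83 CPM. Dntt, the terminal transferase that adds bases at antigen receptor joints, was at 270 and 153 CPM, and Havcr1, the phosphatidylserine receptor Tim-1, at 116 and 133 CPM. Sh3bgr, at 53.2 and 64.8 CPM, had no UMI in the other classes of the WT library, and Angptl7, at 41.0 and 31.6 CPM, had none in those of the pool. The receptor phosphatase gene Ptprf, Ccdc162, Adam11, the apolipoprotein E receptor gene Lrp8, Paqr5 and Klk1b27 (183 and 115 CPM) completed the 15. Of 21 kallikrein genes listed, 16 have a column in the tables and 2, Klk1 and Klk1b27, reached 50 UMIs in pDCs. Both lie in the kallikrein cluster on chromosome 7 and are close copies, so that reads may have been split between them.

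The sensing machinery was present in both libraries, and its receptors were low in absolute UMIs. Tlr7, the endosomal receptor for single-stranded RNA, had 354 UMIs (144 CPM, 129 to 159) in pDCs of the WT library and 391 UMIs (213 CPM, 192 to 235) in those of the pool. Its log2 ratio, pool over WT library, was 0.57 (0.36 to 0.78). Tlr9, the receptor for CpG DNA, had 44 and 69 UMIs, at 17.9 and 37.6 CPM, with a log2 ratio of 1.06 (0.51 to 1.65). Unc93b1, the chaperone that carries both receptors to endosomes, went the other way, at 1816 and 743 CPM with a log2 ratio of -1.29 (-1.38 to -1.20). Its ratio was of like size in the 4 other classes, from -1.12 to -1.46. Pld4, an endosomal exonuclease, was at 1318 and 1158 CPM, and Irf7, the factor that drives interferon genes downstream of these receptors, at 197 and 153 CPM (log2 ratio -0.36, -0.58 to -0.15). With each cell thinned to 1000 UMIs, a Tlr7 UMI was found in 13.2% of 736 pDCs of the WT library and in 21.8% of 284 pDCs of the pool, against 0.393% and 0.506% of T cell-like cells. Without thinning, the shares were 35.4% and 58.2% of pDCs, and 0.927% and 1.60% of T cell-like cells, whose median depths were 2035 and 3565.5 UMIs. Tlr3, the receptor for double-stranded RNA that marks cDC1, had 6 and 1 UMIs in pDCs.

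Almost no interferon transcript was detected in pDCs of either library. Of 18 type I and type III interferon genes listed, 4 have a column in the tables, and their UMIs summed to 1 in the pDCs of each library and to 1 and 2 in all kept cells. Il12b had 0 and 1 UMIs, and Il6 had 10 UMIs in the WT library, all in 1 cell, and 0 in the pool. Genes that interferon induces lay to the lower side in the pool. Of 29 such genes with enough UMIs, 8 were higher and 21 lower in the pool, with a median log2 ratio of -0.26, beside 0.01 over all 7809 genes. None was at least 2-fold higher (3.5% of all genes were) and 3 were at least 2-fold lower (3.02% of all). These were Isg15 (a ubiquitin-like protein, 55 and 13 UMIs, log2 ratio -1.58), Isg20 (an exonuclease, 68 and 15 UMIs, -1.68) and Zbp1 (a sensor of Z-form nucleic acid, 46 and 13 UMIs, -1.32). The median of the list was 0.35 in cDC1-like, 0.17 in cDC2-like, -0.22 in B cell-like and -0.04 in T cell-like cells. Receptor and signalling genes of the interferon pathway (21 measured) had a median of -0.09 and a mean of 0.18, with Ifnar1, a chain of the type I interferon receptor, at 136 and 180 CPM. The interleukin 3 receptor chain Il3ra, known as CD123, had 10 and 41 UMIs, with a log2 ratio of 2.36 (1.44 to 3.62).

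Over all 7809 genes, 273 (3.5%) were at least 2-fold higher in pDCs of the HFHC pool and 236 (3.02%) at least 2-fold lower. Without replicates, these counts describe 2 libraries. Of these 509 genes, 270 had enough UMIs in all 4 other classes, and 127 of the 270 were also past 2-fold in the same direction in at least 3 of them, whereas 60 were so in none. By direction, 88 of 161 genes that were higher and 39 of 109 that were lower had this company. The same shares over all genes measured in these classes were not counted. Whether the sharing, or its lack, differs from that of other genes is therefore not shown.

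**Figure D2:**
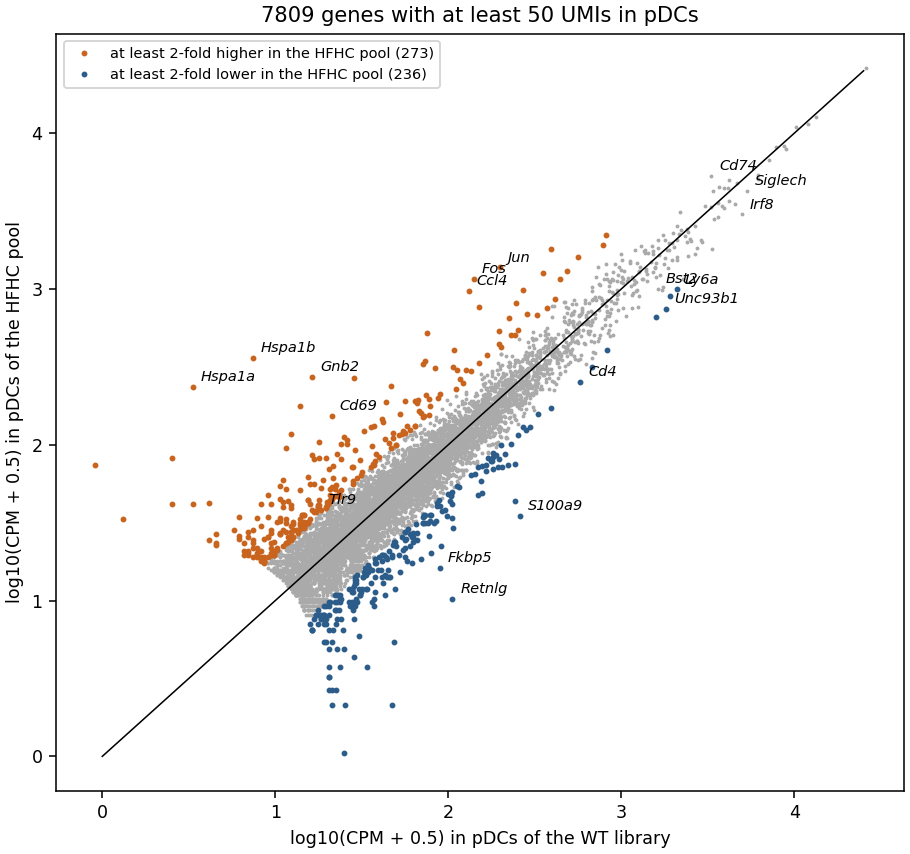
Each point is 1 of 7809 genes, with log10(CPM + 0.5) in pDCs of the WT library on the x axis and in pDCs of the HFHC pool on the y axis; the line marks equal levels. The 273 orange genes lie at least 2-fold above it and the 236 blue genes at least 2-fold below it, and Siglech, Irf8 and Cd74 at the upper right are within 2-fold.

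Among genes with at least 5 UMIs in each library, heat shock and immediate early genes had 4 of the 10 highest ratios. Hspa1a, an inducible heat shock protein of the Hsp70 family, had 7 UMIs in pDCs of the WT library and 433 in those of the pool, a log2 ratio of 6.19 (5.32 to 7.70). Its paralog Hspa1b had 17 and 658 UMIs (5.62, 5.01 to 6.49), and reads of the pair may have been split between them. Both were higher in the pool in the other classes too, with log2 ratios of Hspa1a from 2.51 in cDC2-like to 5.45 in T cell-like cells. Nr4a1, an orphan nuclear receptor of the immediate early group, had 29 and 214 UMIs (3.26), and Fosb, a subunit of the AP-1 factor, 69 and 488 (3.23). Gnb2, a G protein subunit, had 39 and 499 UMIs (4.07) and was between 3.79 and 4.23 in the 4 other classes. Hmga1 (3.69), Gm9844 (3.68) and Gm6377 (4.09) also moved past 2-fold upward in at least 3 other classes. Tent5c, a poly(A) polymerase, had 9 and 77 UMIs (3.39), against ratios of 1.92 in cDC1-like, 2.76 in B cell-like and 0.13 in T cell-like cells. Hba-a1, a globin gene, had 5 and 149 UMIs, of which 99.3% in the pool lay in 1 cell, and its ratio turned from 5.07 to -0.58 without the top cell of each library.

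**Figure D3:**
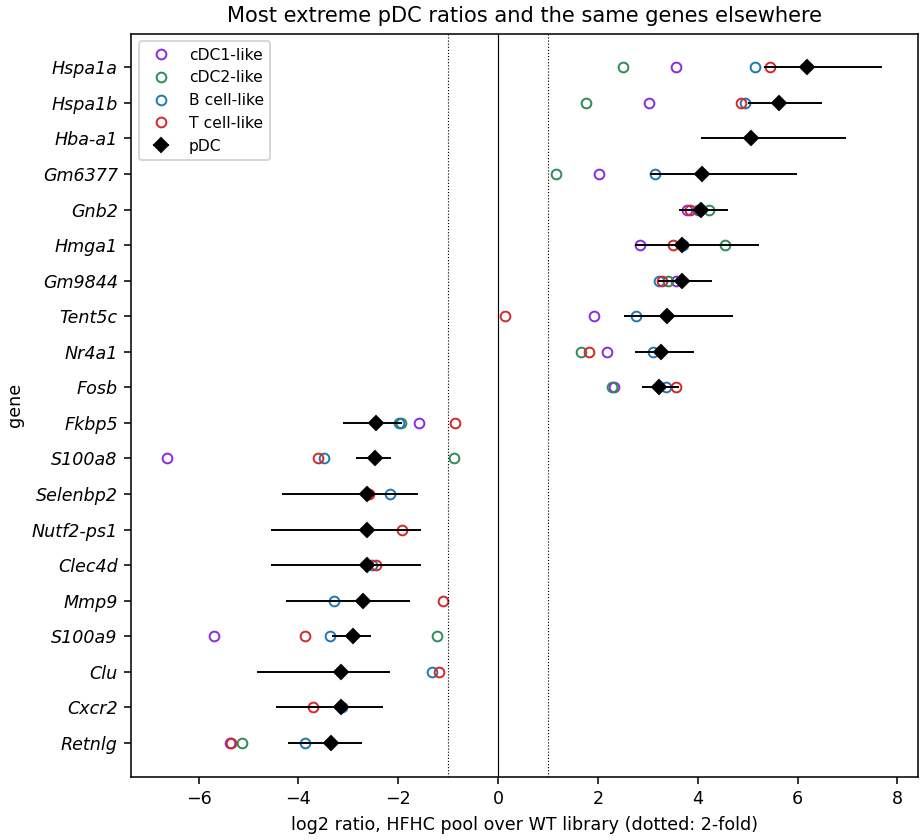
Log2 ratios (pool over WT library) of the 10 highest and 10 lowest genes in pDCs with at least 5 UMIs in each library (diamonds, with 95% counting intervals), with the same ratio in 4 other classes (circles) where a gene had enough UMIs. Of the 10 highest, 8 were past 2-fold upward in at least 3 other classes (the share over all genes was not counted), and Gnb2 lay close to 4 in all 5.

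Genes known to be induced while tissue is dissociated were higher as a group. Of 27 measured, 26 were higher in pDCs of the pool and 18 at least 2-fold, against 3.5% of all genes, with a median log2 ratio of 1.41. The median was 1.28 in cDC1-like, 0.70 in cDC2-like, 0.82 in B cell-like and 0.98 in T cell-like cells. Fos was at 140 CPM (126 to 156) in pDCs of the WT library and 1157 CPM (1108 to 1207) in pDCs of the pool, a log2 ratio of 3.04 (2.88 to 3.21), and Jun was at 199 and 1372 CPM (2.79). Thinned to 1000 UMIs, 10.1% and 48.9% of pDCs held a Fos UMI (22.8% and 80.7% unthinned), beside 5.27% and 26.5% of T cell-like cells. Cd69, an early activation marker that holds lymphocytes in tissue, had 51 and 279 UMIs (2.85, 2.44 to 3.34), whereas its ratios were 0.42 in B cell-like and 0.54 in T cell-like cells. The diet and the dissociation of each liver cannot be told apart in these values.

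Of the 5 measured genes of the list of interferons and pDC cytokines, 4 were higher in the pool, 3 of them at least 2-fold (3.5% of all genes were), and Gzmb was lower. Ccl4, a chemokine that attracts leukocytes, had 321 UMIs in pDCs of the WT library, at 130 CPM (116 to 145), and 1782 in pDCs of the pool, 971 CPM (926 to 1017), a log2 ratio of 2.89 (2.72 to 3.07). In the other classes it was at 4.98 to 17.8 CPM in the WT library and at 19.9 to 289 CPM in the pool, so that pDCs had the highest level of the 5 classes in each. Thinned, 7.74% (5.92 to 9.92%) of pDCs of the WT library and 34.5% (29.0 to 40.4%) of those of the pool held a Ccl4 UMI, against 0.490% and 1.01% of B cell-like cells. Of the other classes, 0.493% and 7.53% of cDC1-like, 0.549% and 6.67% of cDC2-like and 1.41% and 10.4% of T cell-like cells held one. Without thinning, the shares were 13.2% and 54.4% of pDCs and 0.623% and 3.60% of B cell-like cells, at median depths of 3201 and 6314 UMIs for pDCs and 1396 and 2736.5 for B cell-like cells. The related chemokine gene Ccl3 had 90 and 240 UMIs (1.83), with ratios in the other classes from 1.68 to 4.33. Ccl5 had 106 and 346 UMIs (2.12), with 50.3% of those of the pool in 1 cell. Without the pDCs of low marker share described further on, Ccl5 had 75 and 113 UMIs, at 31.7 and 73.6 CPM. Tnf had 37 and 54 UMIs, a log2 ratio of 0.96 (0.34 to 1.61). The list had a median of 1.83, and no interferon was among its 5 measured genes. In the other classes the list had a median of 1.74 in cDC1-like, 1.15 in cDC2-like, 0.21 in B cell-like and 1.34 in T cell-like cells, over 6, 6, 8 and 9 measured genes.

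**Figure D4:**
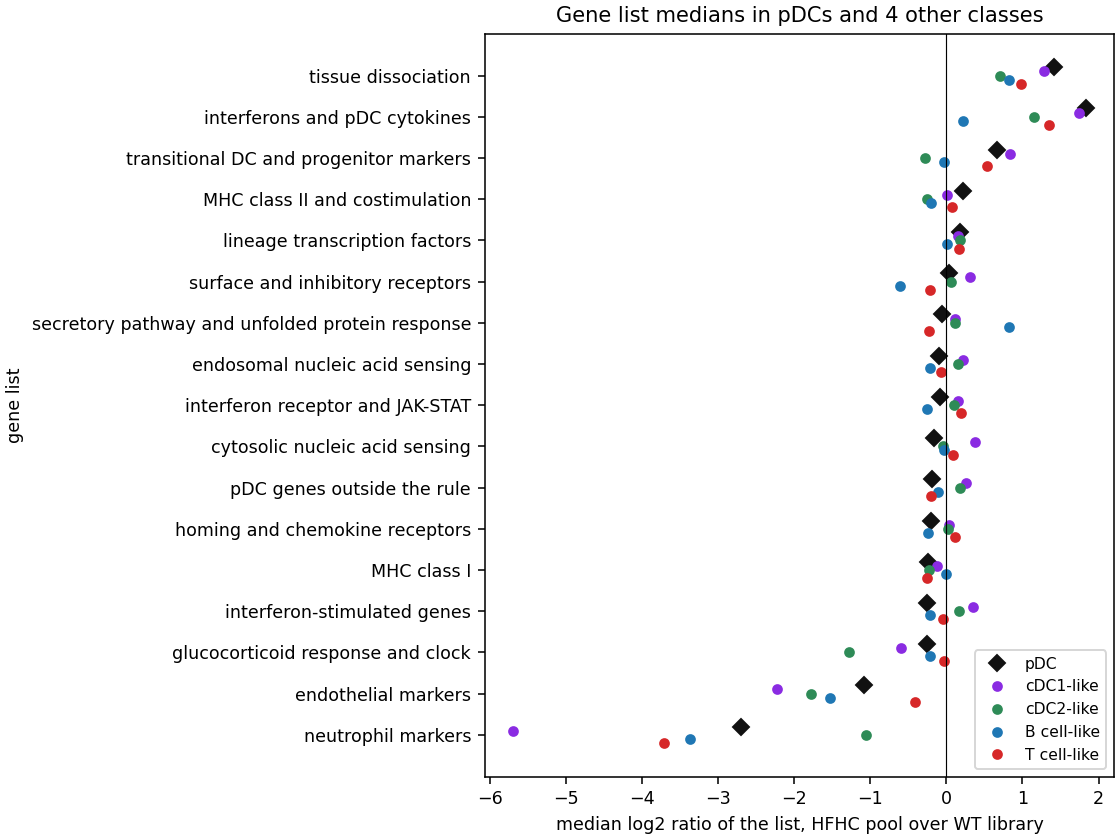
Median over a list of the log2 ratios (pool over WT library), for 17 gene lists (rows) in pDCs (black diamonds) and 4 other classes (circles); a class is drawn where at least 3 genes of the list were measured. The dissociation list is above 0 in all 5 classes (1.41 in pDCs) and the neutrophil list below 0 in all 5 (-2.71 in pDCs).

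Under the same minimum, the lowest ratios belonged mostly to genes of neutrophils. Retnlg had 259 and 18 UMIs (-3.35), Cxcr2 118 and 9 (-3.15), S100a9 640 and 63 (-2.90), Mmp9 69 and 7 (-2.71), Clec4d 49 and 5 (-2.64) and S100a8 594 and 79 (-2.47). All 7 measured markers of neutrophils were at least 2-fold lower, beside 3.02% of all genes, with a median of -2.71, and their summed level was 734 CPM in pDCs of the WT library and 111 CPM in those of the pool. Of the few UMIs left in the pool, 94.4% of Retnlg, 74.6% of S100a9 and 88.6% of S100a8 lay in 1 cell. Markers of liver endothelium followed, with 10 measured, 10 lower and 6 at least 2-fold lower (median -1.08, summed 1062 and 523 CPM). The endothelial median was -0.40 in thinned cells and -3.88 without the pDCs of low marker share. Markers of Kupffer cells summed to 256 and 127 CPM. Hepatocyte markers had a median of 0.05 and a mean of -0.23 over 15 genes, and a summed level of 1820 and 1507 CPM. The neutrophil medians in the other classes were between -1.05 and -5.69. In pDCs the neutrophil median was -1.96 in thinned cells (3 genes measured), -4.65 under the stricter rule and -5.01 without the pDCs of low marker share, and Clec4d was at -0.80 without pDCs with over 1% of UMIs from other cell types. The part that RNA of other cells has in the pDC ratios was not tested. Clu (82 and 6 UMIs, -3.14) had 67.1% of its UMIs of the WT library in 1 cell. Nutf2-ps1, Selenbp2 and Fkbp5 completed the 10 lowest.

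Fkbp5, a target of the glucocorticoid receptor, had 218 and 29 UMIs in pDCs (-2.44, -3.10 to -1.92), with no cell above 1.83% and 6.90% of them. Tsc22d3, another such target known as GILZ, had 433 and 144 UMIs (-1.16), while the clock gene Per1 was at 54.0 and 53.4 CPM. Fkbp5 was lower in the pool in the 4 other classes as well, from -0.87 to -1.99, and so was Tsc22d3, from -0.77 to -1.87. Of 10 measured genes of glucocorticoid response and clock, 2 were at least 2-fold higher, Bhlhe40 (102 and 257 UMIs, 1.75) and Tef (29 and 54 UMIs, 1.30), both transcription factors tied to the clock. With Ddit4 (195 and 36 UMIs, -1.98), a stress-induced inhibitor of mTORC1, 3 were at least 2-fold lower, beside 3.5% and 3.02% of all genes.

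Among the 42 genes of pDC identity listed outside the rule, 1 was at least 2-fold higher in the pool and 4 at least 2-fold lower, beside 3.5% and 3.02% of all genes, with a median of -0.18. Ly6d was at 960 and 928 CPM and the inhibitory collagen receptor Lair1 at 821 and 724 CPM. Bst2 was lower in the pool by a log2 ratio of -0.70 (-0.78 to -0.62), and Irf8 by -0.72 (-0.77 to -0.68), with ratios of Bst2 between -0.99 and 0.01 and of Irf8 between -1.06 and 0.11 in the other classes. Ly6a, the stem cell antigen Sca-1, was at 2097 and 992 CPM (-1.08), and the coreceptor gene Cd4 at 579 and 253 CPM (-1.19, -1.35 to -1.04). Thinned, 34.5% and 21.1% of pDCs held a Cd4 UMI (61.3% and 45.3% unthinned), against 0.196% and 0.225% of B cell-like cells (1.25% and 0.449% unthinned). T cell-like cells, some of which use Cd4, were at 21.5% and 16.6% thinned (34.7% and 30.9% unthinned). Cxcr4, the receptor for the bone marrow chemokine Cxcl12, was at 229 and 101 CPM (-1.17, -1.42 to -0.94), whereas its ratios were between -0.24 and 0.49 in the other classes. Ptprs, an inhibitory receptor phosphatase of pDCs, was at 150 and 335 CPM (1.16, 0.97 to 1.35), and the inhibitory receptor gene Lag3 at 102 and 182 CPM (0.83). Ptprs came within 2-fold in thinned cells, and so did Cd4 and Ly6a without the pDCs of low marker share described further on. Ccr2 was at 471 and 613 CPM, while Ccr7, the receptor of cells that migrate to lymph nodes, had 5 and 16 UMIs.

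Transcripts of some lymphoid genes were found in pDCs of both libraries. Ighm, the heavy chain of IgM, was at 1577 CPM (1527 to 1627) and 1468 CPM (1413 to 1525) in pDCs, and Iglc3, a lambda light chain, at 864 and 589 CPM, while in cDC1-like, cDC2-like and T cell-like cells Ighm was at no more than 321 CPM and Iglc3 at no more than 4.99 CPM. Igkc, the kappa chain, was at 326 and 260 CPM in pDCs and at 25109 and 65533 CPM in B cell-like cells. It was also at 39.5 and 234 CPM in T cell-like, 82.3 and 177 CPM in cDC2-like and 31.3 and 90.3 CPM in cDC1-like cells. In the pool its level in pDCs was thus near that of T cell-like cells. The log2 ratio of Igkc, pool over WT library, was -0.33 in pDCs and from 1.09 to 2.56 in the 4 other classes. Whether the Igkc RNA was made by the pDCs was not tested. Relative to B cell-like cells, the lower of both libraries was -1.04 for Iglc3, -3.96 for Ighm and -7.97 for Igkc (log2). For Igkc the lower value was that of the pool, and the value in the WT library was -6.26. In B cell-like cells Ighm was higher in the pool by 1.81 (log2), and in pDCs its ratio was -0.10. The part that RNA of B cells has in the immunoglobulin transcripts of pDCs was not tested. The B cell receptor component Cd79b was at 30.9 and 28.9 CPM in pDCs. Cd8b1 was at 299 and 239 CPM, Cd7 at 947 and 910 CPM, and the interleukin 7 receptor gene Il7r at 322 and 478 CPM (0.57). Xbp1, a factor of the secretory programme, was at 730 and 460 CPM (-0.67), although in B cell-like cells its ratio was 1.57. The 33 measured genes of the secretory pathway and unfolded protein response had a median of -0.05 in pDCs and 0.83 in B cell-like cells. Markers of plasma cells, a list that holds Igkc and Xbp1, had a median of 1.38 over 9 genes in B cell-like cells, beside -0.07 over all 8549 genes measured in that class. Their summed level there was 31887 and 77085 CPM. In pDCs 4 of these markers were measured, with a median of -0.72 and a sum over the list of 1304 and 868 CPM. The part of plasma cells in these ratios was not tested.

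Antigen presentation genes went in both directions. H2-Ab1, a chain of the MHC class II molecule I-A, was at 2899 CPM (2832 to 2967) in pDCs of the WT library and 2061 CPM (1996 to 2128) in those of the pool, a log2 ratio of -0.49. Cd74, the invariant chain, was at 3304 and 5303 CPM (0.68), and H2-DMa, which helps to load peptides, at 216 and 372 CPM (0.79). The 12 measured genes of the list had a median of 0.22 with none past 2-fold, which turned to -0.081 without the pDCs of low marker share described further on, and the 11 genes of MHC class I a median of -0.25 with none past 2-fold. Over all genes 3.5% were at least 2-fold higher and 3.02% lower, so in lists of this size a count of 0 is near the background. In cDC2-like cells H2-Ab1 was at 21820 and 10652 CPM.

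Within a library, pDCs varied in transcripts of other cells and, among genes that pDCs express, in MHC class II, Ly6c2 and Ccl4. In cells thinned to 1000 UMIs, the variance over the mean of UMIs (Fano factor) had a median of 1.05 in each library over 3044 genes, and 23 genes were over 2 in both. H2-Ab1 was at 3.37 and 3.24, H2-Aa at 2.43 and 2.72, Cd74 at 2.20 and 3.91, Ly6c2 (a surface antigen that separates subsets of mouse pDCs) at 3.06 and 3.58, Ccl4 at 2.50 and 3.58 and Ly6a at 2.55 and 2.19. The 6 highest of the 23 were S100a8, Igfbp7, Lyz2, Selenop, Alb and Ptprb, all better known from other cells, and Car3 and the actin gene Actb (2.85 and 3.12) also stood above Ccl4. Across the thinned cells, as a description, the rank correlation of H2-Ab1 and H2-Aa was 0.65 in the WT library (736 cells) and 0.66 in the pool (284 cells), and that of H2-Ab1 and Cd74 was 0.60 and 0.61. Ly6c2 and Ly6a were at 0.29 and 0.24. Ccl4 and Fos were at 0.06 in the WT library and 0.31 in the pool. Their means were 0.143 and 0.139 UMIs per thinned cell in the WT library, against 0.933 and 1.19 in the pool. With most WT cells at 0 for these genes, the 2 correlations cannot be compared. The cells of a library share a capture and their depth was fixed by thinning.

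Some cells met the rule with few marker UMIs for their depth. The 4 markers took a median of 0.932% of the UMIs of a pDC in the WT library and 0.843% in the pool. At under 0.3%, a limit set after the values were seen, lay 29 pDCs of the WT library (3.87%) and 40 of the pool (14.0%), with median depths of 3484 and 7087 UMIs. These cells held Tcf4 at 2254 and 1177 CPM, against 2526 and 2199 CPM in the other pDCs, and Irf8 at 4093 and 1674 CPM, against 5001 and 3270 CPM. The listed pDC genes outside the rule summed to 33614 and 19876 CPM, against 42733 and 36681 CPM. Ly6d was at 315 and 92.8 CPM, against 987 and 1092 CPM. Klf4, a factor of monocytes and dendritic cells, was at 1401 and 693 CPM in them, against 33.8 and 117 CPM. Cx3cr1, the fractalkine receptor, was at 102 and 179 CPM against 3.81 and 0 CPM, so that all 54 Cx3cr1 UMIs of pDCs of the pool lay in these 40 cells. Zbtb46, a factor of conventional dendritic cells, was at 71.1 and 116 CPM against 10.6 and 1.96 CPM, and Crip1 at 1046 and 1356 CPM against 166 and 237 CPM. Summed over 13 listed genes of transitional dendritic cells and progenitors, which include these 4, the level was 3026 and 2794 CPM against 439 and 588 CPM. In the low-marker cells of both libraries, most UMIs of that list came from these 4 genes. The summed level of monocyte markers was also higher in these cells of both libraries, at 7484 and 8337 CPM against 4882 and 4015 CPM. Over all pDCs this sum was 4986 and 4725 CPM. Ly6c2, which the study lists for monocytes, is also high in pDCs, with means of 4.18 and 3.79 UMIs per thinned pDC. Which genes carried the rise was not tested. Of the myeloid genes given below, Ccr2 was higher in the low-marker cells of both libraries, and Lyz2 only in those of the pool. A monocyte programme in these cells is therefore not shown. Lists of conventional dendritic cells were not clearly higher. Markers of cDC2 summed to 1747 and 1757 CPM against 1685 and 1881 CPM, and those of cDC1 to 528 and 474 CPM against 449 and 486 CPM. The cDC2 gene Clec10a was lower in both libraries, at 102 and 113 CPM against 338 and 294 CPM.

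Other genes and lists also differed between these cells and the other pDCs, some in opposite directions in the 2 libraries. Among the latter were Lyz2, H2-Ab1, Cd74, the MHC class II list and the endothelial and neutrophil markers. Lyz2, a lysozyme of myeloid cells, was at 60.9 CPM in the low-marker cells of the WT library and 1634 CPM in those of the pool, against 235 and 35.8 CPM in the other pDCs, although 46.5% of all Lyz2 UMIs of pDCs of the pool lay in 1 cell. H2-Ab1 was at 914 and 2582 CPM, against 2981 and 1959 CPM, and Cd74 at 1290 and 5983 CPM, against 3387 and 5169 CPM. The MHC class II list summed to 5626 and 15961 CPM, against 11876 and 12082 CPM, and neutrophil markers to 91.4 and 583 CPM, against 760 and 17.6 CPM. Ccr2 was at 670 and 1230 CPM, against 462 and 492 CPM. NK cell markers summed to 1178 and 1203 CPM, against 86.7 and 132 CPM, and endothelial markers to 315 and 2191 CPM, against 1093 and 196 CPM. Scrublet marked 1 of the 29 and 3 of the 40 as doublets. With pDCs under 0.3% left out, the pool kept 245 pDCs, 1.25% of its cells, and Cx3cr1 had 9 UMIs in the WT library and 0 in the pool. The part that wells with more than 1 cell have in these cells was not tested.

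**Figure D5:**
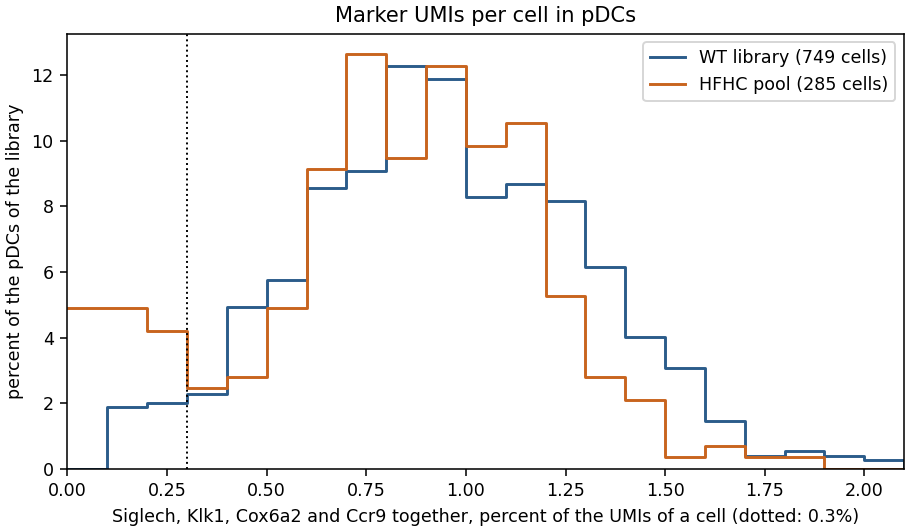
Percent of the pDCs of each library (y axis) by the share of their UMIs that came from Siglech, Klk1, Cox6a2 and Ccr9 together (x axis, in steps of 0.1%), for 749 pDCs of the WT library (blue) and 285 of the HFHC pool (orange). The dotted line is at 0.3%, under which lie 3.87% and 14.0% of the pDCs.

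Chil1, the gene deleted in the Chi3l1-/- mice of the pool, had 7 UMIs in the pDCs of the WT library, at 2.84 CPM (1.14 to 5.86), each in a different cell, and 0 in those of the pool, which allows up to 1.63 CPM. The pool mixes genotypes without a label per cell in the tables used here, so this does not check the labels, and no fold is given because the WT level rests on so few UMIs. Chil3, a related chitinase-like gene of myeloid cells, had 2 and 33 UMIs, of which 90.9% in the pool lay in 1 cell.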

How the data were processed

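Counts were deposited by the authors as UMIs per gene and cell. The file headers name the BD Rhapsody WTA Analysis Pipeline 1.10.1, GENCODE M19, correction of UMI errors and refined calling of cells, and the submitters' processing notes name GRCm38 and Seurat. The aligner is not given in the sources used here. Counts were whole numbers, not scaled to a total and not filtered further. Unmatched columns numbered 0. The sample of tags was not analysed here.

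The members and the gene lists (36 lists, 578 genes, of which 555 have a column) were chosen with earlier results of these data known. Other classes were set on the same kept cells with at most 1 Siglech UMI. cDC1-like cells needed at least 3 UMIs of Xcr1 and Clec9a, cDC2-like cells 2 of Cd209a and 4 with Clec10a, Mgl2, Sirpa and Irf4, B cell-like cells 2 of Cd79a and 4 with Cd79b and Ms4a1, and T cell-like cells 1 of Cd3e and 4 with Cd3d, Cd3g, Trac and Trbc2. Each class could hold at most 2 UMIs of Clec4f and Vsig4 and at most 1 of the markers of the others in the rule. UMIs were summed over a class and library and scaled to CPM. Log2 ratios (pool over WT library) had 1 UMI added to each sum, and genes entered them with 50 UMIs or more over both libraries. A gene was counted as higher or lower at 2-fold. Each condition has 1 library, cells are not replicates, and therefore nothing was tested. Intervals are exact Poisson (levels), Clopper-Pearson (shares) and conditional binomial (ratios), at 95%. For shares of cells with a UMI, each cell was thinned to 1000 UMIs (seed 42), which left out 13 pDCs of the WT library and 1 of the pool.

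Genes were named if they were in the rule or the lists with at least 20 UMIs, among the 15 leading genes, among the 10 highest or 10 lowest ratios with at least 5 UMIs in each library, or Chil1. Tlr3, Il6, Il12b and genes given for their variation among cells fall outside this and were picked with their values known. Alternatives were another scaling, minimum, added UMI, cell filter, rule, denominator and depth, and removal of doublets. Those on marker density, UMIs of other types, shared indices and the top cell were chosen after seeing the data. Scripts were tested on simulated counts. Python 3.11.15, numpy 2.4.6, scipy 1.17.1, pandas 2.3.3, matplotlib 3.10.9 and scanpy 1.11.5 were used.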

Additional observations from a re-analysis of the deposited data

How the results depend on the processing

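No paired analysis was possible because each condition has 1 library, and for the same reason none could be left out. Of 20 recomputed shares of pDCs, 14 moved by less than their counting interval. The WT library's share went from 3.21% to 4.21% with hepatocyte-rich cells out of the denominator and to 2.93% without pDCs with over 1% of UMIs from other cell types. The pool's share went from 1.45% to 1.24% at a mitochondrial limit of 10%, 1.69% under the looser rule, 2.10% without hepatocyte-rich cells in the denominator and 1.25% at a marker share of at least 0.3%. Counts of genes past 2-fold stayed within 1.5 times of 273 and 236 in 18 of 22 recomputed values. They were 494 and 435 with at least 20 UMIs (9792 genes) and 102 and 117 in thinned cells (3617 genes), of which 68 and 59 were among the 273 and 236. Removing the doublets gave 292 and 165. Of 119 recomputed medians of 17 lists, 107 moved by less than the lists' typical counting interval. The cytokine list went to 0.96 (at least 20 UMIs) and 1.41 (mean), the JAK-STAT list to 0.18 (mean) and the dissociation list to 1.84 (mean). MHC class II went to 0.43 (thinned) and -0.081 (marker share). Neutrophil markers went to -4.65 (stricter rule), -1.96 (thinned) and -5.01 (marker share), and endothelial markers to -2.31, -0.40 and -3.88. Of 572 recomputed ratios of 52 single genes, 560 were counted as unchanged. For genes past 2-fold, this means that direction and side of 2-fold were kept. For genes within 2-fold, it means only that they did not pass 2-fold in their first direction, so a change of sign was not counted. Clu (-0.98) and Tlr9 (0.99) came within 2-fold without doublets, Clec4d (-0.80) without pDCs with over 1% of UMIs from other types, Ptprs (0.94) and Crip1 (0.94) in thinned cells, and Crip1 (0.51), Cd4 and Ly6a (both just short of -1) at the marker share, while Lag3 passed it in thinned cells (1.04). Hba-a1 turned to -0.58 without the top cell, Cx3cr1 to -2.70 at the marker share (9 and 0 UMIs, so that the value is set by the added UMI) and Mgl2 to 0.19 in thinned cells. Beyond what the construction of these settings shows, the causes were not tested. Depth limited transcripts under about 1.22 and 1.63 CPM.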

Other observations

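Mki67, which marks cycling cells, had 22 UMIs in pDCs of the WT library and 42 in those of the pool, of which 45.5% and 78.6% lay in 1 cell. The 10 measured genes of the cell cycle list had a median log2 ratio of 0.16. The median was -1.14 in cDC1-like, -1.17 in cDC2-like, -0.71 in T cell-like and 0.66 in B cell-like cells. Glycolysis genes had a median of 0.15 over 16 genes, and subunits of cytochrome c oxidase one of -0.24 over 12. The list of survival and apoptosis had a median of 0.17 over 17.

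A few genes, chosen after their values were seen, had ratios in pDCs unlike those of the 4 other classes. Cd33, a surface lectin, was at 149 and 176 CPM in pDCs, a log2 ratio of 0.25, whereas its ratios were between -0.91 and -2.77 elsewhere. Zbp1 was at -1.32 in pDCs and between 0.03 and 1.42 elsewhere, and Upb1 at -0.04 in pDCs and between 0.97 and 1.34 elsewhere.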
